A study of Arabidopsis thaliana with 9 samples.

Results

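Leaves sampled 60 min after wounding were set against leaves sampled 30 min after wounding, to describe which genes that had risen by 30 min came down again and which genes started to move in the next 30 min. The comparison used 6 of the 9 libraries of the series, 3 at 60 min and 3 at 30 min, and the 3 libraries from before wounding served to tell whether a gene had already moved by 30 min. All plants were Arabidopsis thaliana Col-0, wild-type in genotype, grown on soil in short days, and each time had 3 biological replicates. The series title links evaporative cooling to wound healing. No unwounded leaves sampled at 30 or 60 min are among the samples, so the effects of wounding and of the hour cannot be told apart.

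Wounding a leaf sets off calcium and electrical signals, kinase cascades and a burst of jasmonate, a fatty-acid hormone made from plastid lipids. Jasmonate conjugated to isoleucine binds the receptor COI1 with JAZ repressors, which are then degraded, and the transcription factor MYC2 is freed. MYC2 activates genes of jasmonate synthesis and also the JAZ genes themselves, and cytochromes P450, oxygenases and a sulfotransferase remove or inactivate the hormone. Immediate-early genes of this response, many of them encoding transcription factors, are known from other work to be short-lived at the RNA level.

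Library totals were 22072126 to 22477982 counts at 60 min and 14300929 to 22603929 counts at 30 min, with replicate 1 at 30 min the shallowest. Levels are given as CPM, counts per 1000000 of the scaled library total. Replicates within a group differed by more than counting noise (chi-square per degree of freedom 6.91 to 41.1 between pairs of libraries). Among these 6 libraries the first principal component, with 34.2% of the variance, did not separate the times. The second, with 29.7%, placed the 60 min libraries (-33.0, -6.43 and -30.2) below the 30 min libraries (13.7, -3.96 and 59.8), by a small gap. Replicate 2 at 60 min and replicate 3 at 30 min stood apart from the rest on the first and the second component, in that order. Marker lists for mesophyll, guard cells, epidermis, phloem and xylem, each of 5 genes, held 0 genes called between the times. The summed level of the mesophyll markers was 121922 to 153876 CPM at 60 min and 135405 to 165982 CPM at 30 min. Of the 5 root markers, 3 were at or under the floor of 3 counts in all 6 libraries. Leaf tissue was measured in bulk, so fewer cells of a type and less RNA per cell cannot be told apart.

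Between 30 and 60 min 356 of 17622 tested genes differed, 2.02% of those tested, with 127 higher at 60 min (0.721%) and 229 lower (1.3%) at a Benjamini-Hochberg adjusted p under 0.05 in edgeR's quasi-likelihood test. In all 356 the CPM values of the 3 libraries at 60 min and the 3 at 30 min did not overlap. These genes were chosen by their call, so this adds no support to it, and the share over all tested genes was not counted. Of the 356 calls 126 were kept in all 9 fits that leave out 1 library. The count of 356 was sensitive to single libraries, and fell to 162 when 30 min replicate 1 was left out and to 161 when 60 min replicate 1 was left out. Leaving out the libraries that stood apart gave 272 (60 min replicate 2) and 338 (30 min replicate 3). Scaling by library size alone put the share of higher genes among those called at 50.8%, against 35.7% with the TMM factors used here, and moved the median over all tested genes to a log2 change of 0.13, against 0.02.

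Of the 229 genes lower at 60 min, 159 had been called higher by 30 min, 28 had been called lower by 30 min and 42 had no call by 30 min. Of the 127 genes higher at 60 min, 41 had risen by 30 min, 29 had fallen by 30 min and 57 had no call at that time. Both comparisons use the 30 min libraries, so they are not independent of each other. The early comparison called 28% of the tested genes, 14.5% higher and 13.4% lower.

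**Figure D1:**
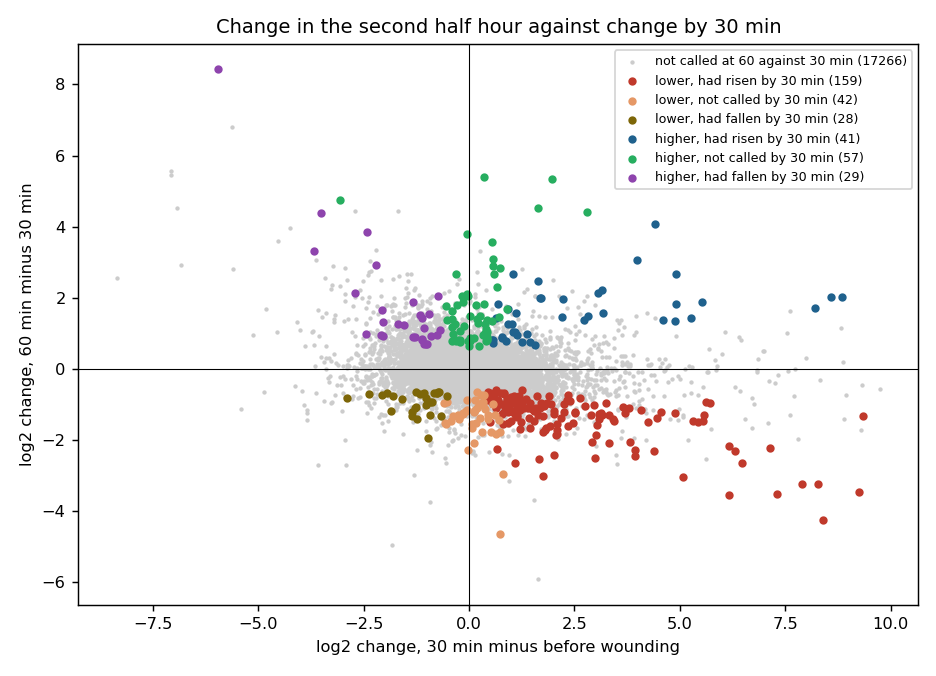
Log2 change of each of 17622 tested genes from 30 min to 60 min (vertical axis, 60 min minus 30 min) against its log2 change by 30 min (horizontal axis, 30 min minus before wounding). Coloured points are the 356 genes called between 30 and 60 min, by their call at 30 min, and the 159 early rises that fell occupy the lower right; both axes contain the 30 min libraries.

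Most early inductions had no call between 30 and 60 min. Of the 2561 genes that had risen by 30 min, 159 (6.21%) were lower at 60 min than at 30 min, 41 were higher and 2361 had no call between the times, while 2043 were still called higher at 60 min than before wounding, a comparison that called 32.4% of the tested genes, 17.1% higher and 15.3% lower. Among rises of at least 16-fold, 24 of 127 genes were lower and 10 were higher, against 36 lower and 10 higher of 1228 genes whose rise was under 2-fold. The share that was lower was 6.90% for rises of 2 to 4-fold and 11.4% for rises of 4 to 16-fold. No test was made across these classes, because the same 30 min libraries set the class and the fall.

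**Figure D2:**
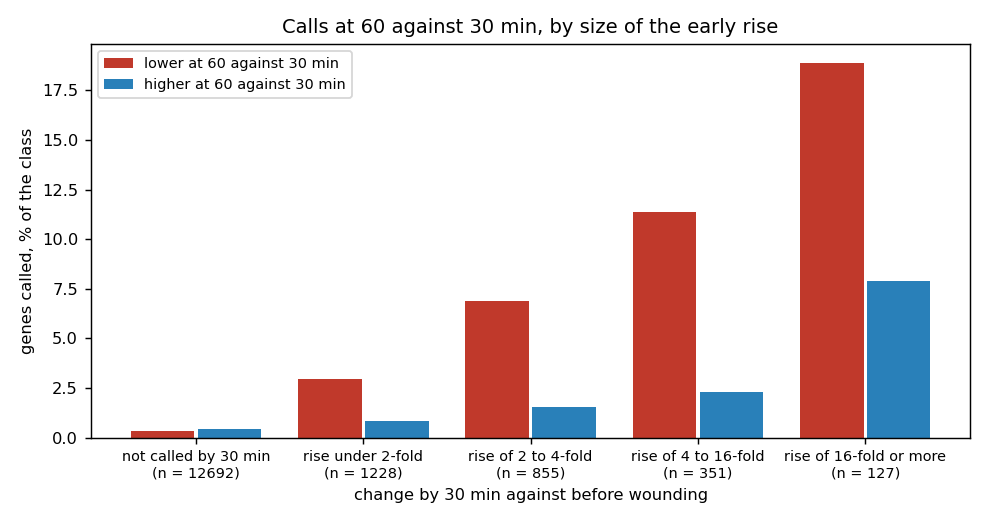
Share of genes called lower (red) and higher (blue) at 60 min than at 30 min, in % of the class on a linear axis from 0, for classes of genes by their rise by 30 min. The share that was lower is 18.9% among rises of at least 16-fold and 2.93% among rises under 2-fold.

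The 159 early rises that fell had lost a median of 87.7% of their rise in CPM by 60 min, with quartiles at 71.1% and 106%. These genes were chosen for a called fall, and over all 2561 early rises the median loss was 9.84%. In 44 of them the mean at 60 min lay at or below the mean before wounding. Against before wounding, 65 of the 159 were still called higher at 60 min, 90 had no call and 4 were called lower. With 60 min replicate 1 left out the count of 159 became 69, with 30 min replicate 1 left out it became 74, and it was 94 when libraries were scaled by size alone.

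Some enzymes of jasmonate synthesis fell and the others had no call. Of 14 tested synthesis genes 4 were lower and 0 higher at 60 min, with a median log2 change of -0.12 against 0.02 over all tested genes. LOX4, a lipoxygenase that oxidises linolenic acid, had 10.5, 10.5 and 8.64 CPM at 60 min, against 50.5, 58.6 and 53.0 CPM at 30 min. That is a log2 change of -2.45 (SE 0.20, adjusted p 3.96e-05), and its libraries at the 2 times are far apart. LOX3, its close relative, had 77.7, 79.8 and 91.0 CPM at 60 min, against 149, 195 and 215 CPM at 30 min (log2 change -1.17, adjusted p 0.00144). OPCL1, a ligase that activates the precursor for chain shortening, had 43.6, 48.2 and 46.5 CPM at 60 min, against 94.7, 103 and 98.5 CPM at 30 min (log2 change -1.10, adjusted p 0.00286). OPR3, the reductase of the pathway, was the other gene that fell, and its adjusted p of 0.00778 became 0.0584 without 60 min replicate 1, the call being lost also with library size alone. LOX3, LOX4, OPCL1 and OPR3 were all still called higher at 60 min than before wounding.

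Most JAZ repressor genes fell. Of 12 tested members 9 were lower at 60 min, 0 were higher, and the median log2 change was -0.97. JAZ5 had 3.58, 6.48 and 3.81 CPM at 60 min, against 25.7, 21.5 and 21.9 CPM at 30 min (log2 change -2.31, SE 0.27, adjusted p 0.000591). JAZ8 had 3.02, 3.11 and 4.38 CPM at 60 min, against 17.8, 17.3 and 13.8 CPM at 30 min (log2 change -2.22, adjusted p 0.0067). Before wounding JAZ5 had at most 0.452 CPM and JAZ8 at most 0.307 CPM in any library. JAZ7 showed the largest fold among them that did not depend on values near the floor, 9.45-fold lower at 60 min than at 30 min. JAZ2, which was detected in all libraries before wounding (19.1 to 23.8 CPM), had 77.6, 82.8 and 94.8 CPM at 60 min, against 165, 181 and 167 CPM at 30 min (log2 change -1.01, adjusted p 0.00166). JAZ1, JAZ3, JAZ6, JAZ10 and AT3G22275, a further JAZ gene, were also lower, with log2 changes of -1.48, -0.77, -0.87, -0.94 and -3.56. Without 30 min replicate 1 or without 60 min replicate 1 the calls of JAZ1, JAZ3, JAZ6 and JAZ10 were lost, and the highest adjusted p over the fits that leave out 1 library was 0.131, 0.16, 0.0586 and 0.113 for these genes. JAZ1 and JAZ3 also lost the call without replicate 2 of either time, and JAZ3 without replicate 2 from before wounding. With library size alone JAZ1 and JAZ10 lost the call, as did JAZ3 in a fit to the 30 and 60 min libraries only. JAZ9, JAZ11 and JAZ12 had no call, with log2 changes of -0.62, 0.58 and -0.03 and adjusted p of 0.0587, 0.109 and 0.966.

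Among jasmonate transcription factors, 3 of 8 tested were lower and 0 higher. MYC2, the activator held by JAZ proteins, had 47.7, 47.5 and 56.6 CPM at 60 min, against 114, 156 and 129 CPM at 30 min (log2 change -1.40, adjusted p 0.00126). JAM2, a bHLH factor known to oppose MYC2, had 11.8, 9.70 and 11.4 CPM at 60 min, against 20.7, 20.5 and 22.5 CPM at 30 min (log2 change -0.96, adjusted p 0.0104). Activator and opponent thus both fell. JAM1, a relative of JAM2, was lower by 1.0 on the log2 scale, with an adjusted p of 0.0398 that rose to as much as 0.158, the call being lost without replicate 1 or 2 of either time, without replicate 2 from before wounding and in a fit to the 30 and 60 min libraries only.

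Genes that remove jasmonate split in 2 directions. Of 9 tested, all 9 had risen by 30 min, and 3 rose further while 1 fell. ST2A, a sulfotransferase acting on hydroxylated jasmonate, had 9.78, 9.62 and 14.3 CPM at 60 min, against 0.835, 1.84 and 1.27 CPM at 30 min (log2 change 3.06, SE 0.37, adjusted p 0.000721). AT2G38240, one of the 2-oxoglutarate-dependent oxygenases that hydroxylate jasmonate, had 66.6, 64.9 and 115 CPM at 60 min, against 18.4, 22.5 and 33.9 CPM at 30 min (log2 change 1.72, adjusted p 0.0061). JRG21, of the same oxygenase group, had 8.01, 13.3 and 14 CPM at 60 min, against 3.76, 2.62 and 3.20 CPM at 30 min (log2 change 1.88, adjusted p 0.00731). All 3 calls held in each of the 9 fits that leave out 1 library. CYP94B3, the P450 that hydroxylates jasmonoyl-isoleucine, went the other way, with 13.8, 15.7 and 24.4 CPM at 60 min against 39.1, 50.6 and 45.1 CPM at 30 min (log2 change -1.32, adjusted p 0.0174). Its call was lost without 60 min replicate 1 and without 30 min replicate 1 or 2, with an adjusted p of up to 0.118, and with library size alone. ILL6 and IAR3, hydrolases of jasmonate conjugates, had log2 changes of -0.59 and -0.10 with no call.

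**Figure D3:**
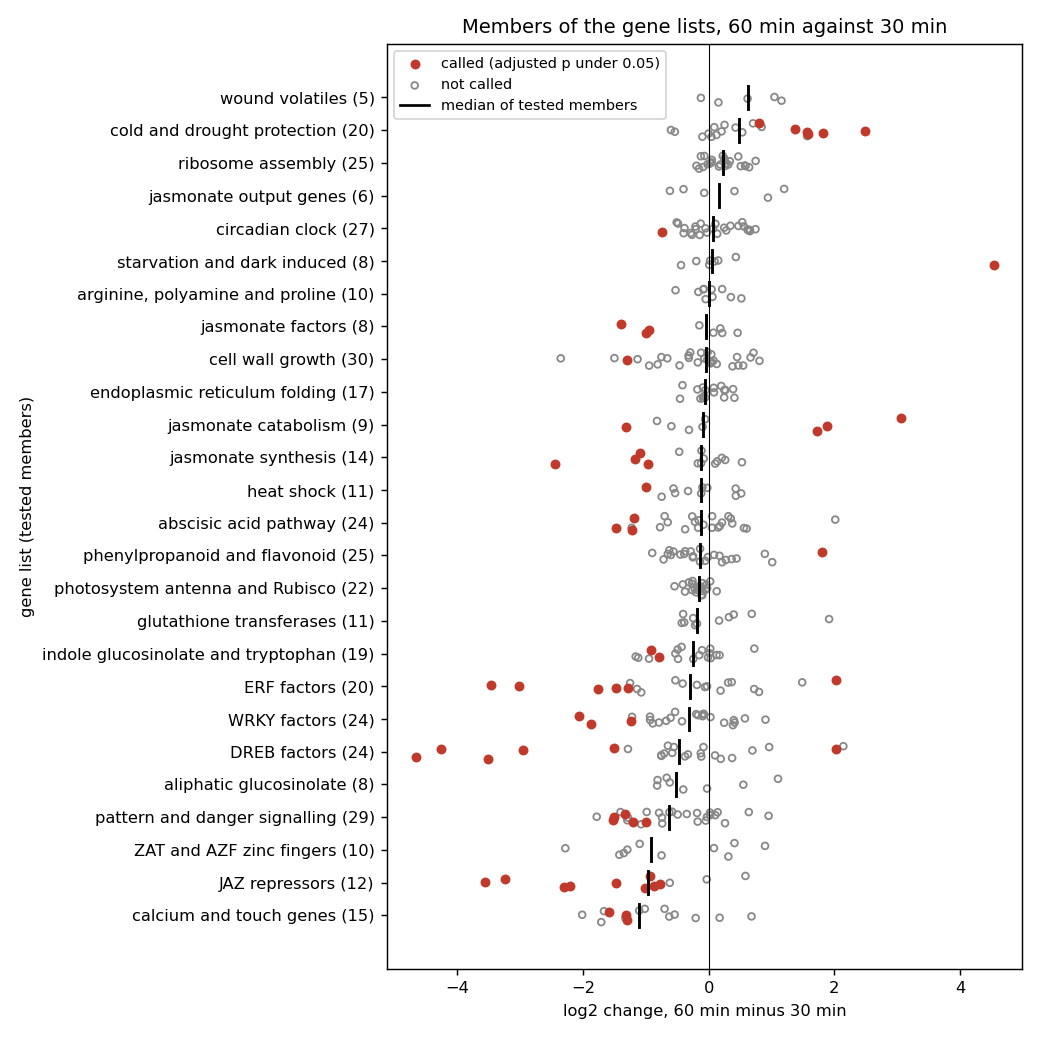
Log2 change (60 min minus 30 min) of every tested member of 26 gene lists, ordered by the median of the list (black bar); filled red points are called genes and open points are not called. JAZ repressors lie to the left, with 9 of 12 called lower, and cold and drought protection genes lie to the right, with 6 of 20 called higher.

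Transcription factor genes fell by family in unequal number. By the RefSeq product names, a grouping made after the values were seen, 10 of 58 tested AP2/ERF factors were lower and 1 was higher, against 1.3% and 0.721% of all tested genes. RRTF1, an ERF factor tied to redox stress, was 11.04-fold lower at 60 min than at 30 min, and DDF1, a DREB factor tied to salt and gibberellin responses, was 11.4-fold lower. ERF6, a factor of the oxidative stress response, had 18.1, 13.8 and 26.5 CPM at 60 min, against 40.5, 50.1 and 51.3 CPM at 30 min (log2 change -1.28, adjusted p 0.0105, or 0.0726 and no call without 60 min replicate 1). ORA47, a DREB factor known to bind promoters of jasmonate synthesis genes, had 3.10, 4.05 and 5.71 CPM at 60 min, against 12.7, 15.7 and 8.33 CPM at 30 min (log2 change -1.51, adjusted p 0.0186). Without 60 min replicate 1, or without 30 min replicate 1 or 2, ORA47 had an adjusted p of up to 0.114. TINY, a DREB factor, was the 1 gene of this group called higher. It had 11.9, 8.64 and 12.3 CPM at 60 min against 3.20, 3.20 and 1.68 CPM at 30 min (log2 change 2.03, adjusted p 0.00605) and 0 counts in all 3 libraries from before wounding. In the list of DREB factors 18 of 24 tested had no call, and the log2 change was negative in 17 and positive in 7. RAP2.6, an ERF factor that RefSeq lists without a domain name and that the product grouping therefore missed, had 25.3, 36.9 and 39.2 CPM at 60 min, against 8.49, 7.18 and 9.11 CPM at 30 min (log2 change 2.03, adjusted p 0.000294).

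Of 40 WRKY factors, regulators of defence genes, 3 were lower and 0 higher. WRKY40 had 7.54, 8.15 and 13.1 CPM at 60 min, against 37.7, 33.3 and 48.7 CPM at 30 min (log2 change -2.06, adjusted p 0.00314), and it had no call between 60 min and before wounding. WRKY18, its partner in defence, was lower by 1.24 on the log2 scale and was still called higher than before wounding. WRKY46 had a log2 change of -1.87 at under 4 CPM, and its call was lost in 6 of the 9 fits that leave out 1 library, namely without replicate 1 or 2 of either time and without replicate 2 or 3 from before wounding (adjusted p up to 0.149). It was lost also with library size alone, with libraries thinned to equal depth and in a fit to the 30 and 60 min libraries only. Of 53 NAC factors 5 were lower and 1 was higher. ATAF1, a NAC factor of the wound and drought responses, had 12, 14 and 23.5 CPM at 60 min, against 46.8, 43.1 and 47.1 CPM at 30 min (log2 change -1.47, adjusted p 0.00557). Its mean at 60 min was near that before wounding, having lost 97.5% of its early rise. MYBR1, a MYB factor of the abscisic acid response also called MYB44, had 144, 120 and 194 CPM at 60 min, against 278, 460 and 344 CPM at 30 min (log2 change -1.24, adjusted p 0.0068). Of 130 genes with homeodomain, homeodomain-like or homeobox in their product name, a group that includes MYB-related proteins, 6 were higher and 1 was lower. Over all tested genes 0.721% were higher and 1.3% lower. The WRKY, NAC and homeodomain groups counted here were made by product name after the values were seen.

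**Figure D4:**
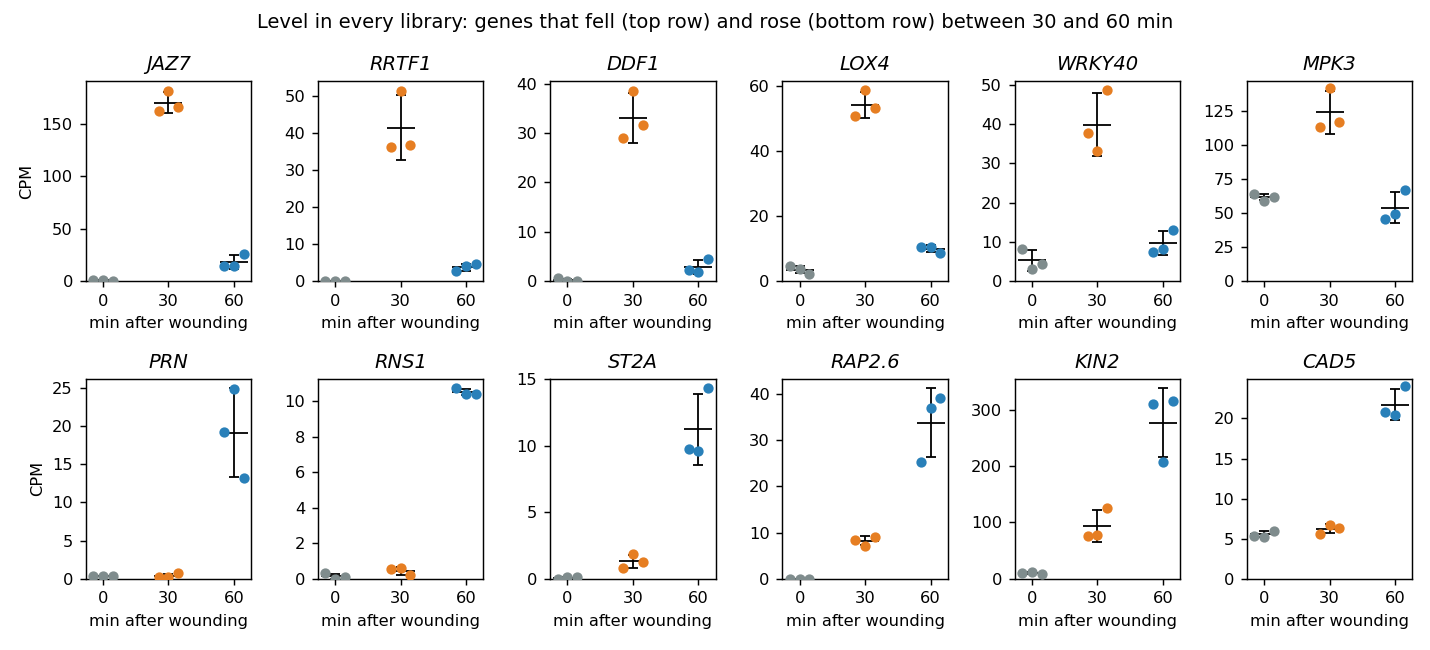
CPM in every library (points, 3 per time) with mean and SD (bars) before wounding (0), 30 min and 60 min after wounding, on linear axes from 0 that differ between panels. The top row holds 6 genes called lower at 60 min than at 30 min and the bottom row 6 genes called higher. In each panel the 60 min and 30 min points do not overlap, which held for all 356 called genes and adds no support to the calls.

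Some signalling genes fell, and most had no call. Of 29 tested genes of pattern and danger signalling 5 were lower and 0 higher, with a median log2 change of -0.63, and of 15 calcium and touch genes 3 were lower and 0 higher, with a median of -1.11. DESeq2 called 8 lower and 2 higher in the signalling list and 7 lower in the calcium and touch list. Over all 17622 tested genes edgeR called 1.3% lower and 0.721% higher, and DESeq2 called 452 genes lower and 250 higher. MPK3, a mitogen-activated protein kinase activated within minutes of wounding, had 45.6, 49.4 and 67.2 CPM at 60 min, against 113, 142 and 117 CPM at 30 min (log2 change -1.20, adjusted p 0.00155). RBOHD, the NADPH oxidase that makes extracellular reactive oxygen, had 8.32, 7.80 and 10.2 CPM at 60 min, against 25.8, 27.3 and 21.7 CPM at 30 min (log2 change -1.5, SE 0.17, adjusted p 0.000559). Before wounding RBOHD had 15.8, 19.6 and 17.9 CPM, so its 60 min libraries lay below both earlier times, and the call against before wounding was lower. CPK28, a calcium-dependent kinase that limits immune signalling, had 24.4, 24.4 and 30.9 CPM at 60 min, against 59.5, 69.9 and 78.1 CPM at 30 min (log2 change -1.38, adjusted p 0.000721). AT1G27770, the calcium pump gene ACA1, had 14.9, 13.8 and 19.7 CPM at 60 min, against 60.3, 63.3 and 49.3 CPM at 30 min (log2 change -1.84, adjusted p 0.00025). MPK3, RBOHD, CPK28 and AT1G27770 had thus been called higher by 30 min and then fell, and 2 times after wounding cannot place a peak. Other kinase genes were called higher at 60 min than at 30 min, among them CIPK7, which had fallen by 30 min, and CRK29, which had risen by 30 min. LYK5, a receptor kinase for chitin, was lower by 1.26 on the log2 scale (adjusted p 0.00805).

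Calcium and touch genes included CML38, a calmodulin-like protein, with 8.01, 4.05 and 8.77 CPM at 60 min against 17.61, 20.2 and 24.4 CPM at 30 min (log2 change -1.58, adjusted p 0.0208). TCH2, a touch-induced calmodulin-like gene, had 18.5, 6.67 and 16.1 CPM at 60 min, against 29.6, 34.9 and 38 CPM at 30 min (log2 change -1.32, adjusted p 0.0298). XTH22, the touch gene TCH4 that encodes a wall-remodelling enzyme, had 98.9, 66.8 and 169 CPM at 60 min, against 232, 281 and 317 CPM at 30 min (log2 change -1.31, adjusted p 0.0185). TCH2 and XTH22 had no call by 30 min and were lower at 60 min than before wounding. The calls of CML38 and XTH22 were lost without 60 min replicate 1, and those of CML38 and TCH2 without 30 min replicate 1, with adjusted p of up to 0.0761 for CML38, 0.118 for XTH22 and 0.0754 for TCH2. TCH2 was also lost without 30 min replicate 2 or 3 and without replicate 2 from before wounding. With library size alone CML38 and TCH2 lost the call, and in a fit to the 30 and 60 min libraries only TCH2 and XTH22 did. All 10 tested ZAT and AZF zinc finger factors, stress-induced repressors, had no edgeR call, with a median log2 change of -0.93. Of them 6 had an unadjusted p under 0.05 in edgeR, against 2196 of the 17622 tested genes, and DESeq2 called 1 lower.

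Immune receptor genes had calls in both directions. Of 75 tested TIR-NBS disease resistance genes, grouped by product name after the values were seen, 8 were lower (10.7%) and 0 higher. Over all tested genes 1.3% were lower and 0.721% higher. CRK10, a cysteine-rich receptor kinase, had 6.16, 9.47 and 9.92 CPM at 60 min, against 33.8, 47.5 and 40.4 CPM at 30 min (log2 change -2.25, adjusted p 0.000421). It was also lower at 60 min than before wounding, as was AT5G19240, a GPI-anchored glycoprotein gene with 12.6, 9.28 and 14.4 CPM at 60 min against 83.3, 88.8 and 56.9 CPM at 30 min (log2 change -2.66, adjusted p 0.000207). Members of the cysteine-rich receptor kinase family did not move one way, since CRK28 and CRK29 were higher. CRK29 had 45.1, 63.4 and 38.5 CPM at 60 min, against 18.1, 14.9 and 20.5 CPM at 30 min (log2 change 1.46, adjusted p 0.0226, up to 0.105 and no call without replicate 1 or 2 of either time or with library size alone). CRK28 lost its call with library size alone and in a fit to the 30 and 60 min libraries only.

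Some genes that protect cells from cold and drought rose. Of 20 tested 6 were higher, 0 were lower and 14 had no call at 60 min, with a median log2 change of 0.48. Over all tested genes 0.721% were higher. Of the 6 higher genes 5 had already risen by 30 min. GOLS3, a galactinol synthase known to be induced by cold, had 13.8, 11.5 and 11.1 CPM at 60 min, against 1.39, 1.36 and 3.61 CPM at 30 min (log2 change 2.48, SE 0.40, adjusted p 0.00538). LTI30, a dehydrin, had 43.5, 28.2 and 69.4 CPM at 60 min, against 10.9, 12.6 and 16.4 CPM at 30 min (log2 change 1.82, adjusted p 0.00692). Without 30 min replicate 1 the call of LTI30 was lost, with an adjusted p of 0.0564. COR15A, a chloroplast protein that stabilises membranes on freezing, had 83.3, 65.6 and 78.0 CPM at 60 min, against 16.9, 17.0 and 42.2 CPM at 30 min (log2 change 1.57, adjusted p 0.0327). Replicate 3 at 30 min was high in COR15A and GOLS3 relative to its group, and in both it stayed below all libraries at 60 min. The call of COR15A was lost without replicate 1 or 2 at 30 min and without replicate 1 or 3 at 60 min (adjusted p up to 0.163), and with library size alone. KIN2 and RD29A were higher by 1.58 and 1.38 on the log2 scale, and RD29A lost the call without 60 min replicate 1 and without 30 min replicate 1 or 2 (adjusted p up to 0.123). COR413-PM1, a membrane protein, was higher by 0.79, and its call held only in the fits without replicate 1 from before wounding and without 60 min replicate 2 (adjusted p up to 0.127). COR413-PM1 also lost it in a fit to the 30 and 60 min libraries only. The dehydrin genes ERD10 and COR47 had 0.12 and 0.70 with no call, and RD29B and RAB18, which are driven mainly by abscisic acid, had 0.04 and -0.60 with no call.

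Of 24 abscisic acid pathway genes 3 were lower, 0 higher and 21 not called. The median log2 change was -0.12, with 13 negative and 11 positive. The 3 lower genes were the NAC factors RD26, ATAF1 and NAC055. RD26 had lost 85.9% of its early rise, and NAC055 was still called higher than before wounding, with 5.60, 8.15 and 11.3 CPM at 60 min against 20.9, 16.5 and 20.8 CPM at 30 min (log2 change -1.22, adjusted p 0.0329, up to 0.157 and no call without 60 min replicate 1 or 2, 30 min replicate 1 or 3, or replicate 3 from before wounding, or with library size alone). The few calls thus ran upward in the protection list and, for these 3 NAC factors only, downward in the abscisic acid list. The difference between the lists was not tested.

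Among the 57 genes that rose after 30 min with no earlier call, 55 were also higher at 60 min than before wounding. Where these genes are named as rises that began after 30 min, the label rests on the missing call alone, and a smaller earlier rise can be present. With 30 min replicate 1 left out the count of 57 became 25, and with 60 min replicate 1 left out it became 29. PRN, the cupin-fold protein pirin, was 42.5-fold higher at 60 min than at 30 min, and RNS1, a secreted wound-induced ribonuclease, was 23.2-fold higher. By 30 min RNS1 already had a log2 change of 1.63 against before wounding, with no call (SE 0.69, adjusted p 0.0946). CAD5, a cinnamyl alcohol dehydrogenase that makes lignin precursors, had 20.8, 20.4 and 24.0 CPM at 60 min, against 5.64, 6.75 and 6.32 CPM at 30 min (log2 change 1.80, SE 0.17, adjusted p 0.000178). Before wounding CAD5 had 5.39, 5.27 and 5.97 CPM, so its level was not called as changed until the later interval. It was the single called member of 25 tested phenylpropanoid and flavonoid genes, of which 15 had fallen by 30 min. ELI3-2, another gene of the cinnamyl alcohol dehydrogenase family, had 1.25, 0.644 and 0.842 CPM at 60 min and at most 0.0485 CPM in any library at 30 min (adjusted p 0.0237, up to 0.121 and no call without 60 min replicate 1 or without any 1 of the 30 min libraries).

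Several further genes that rose between 30 and 60 min were picked after their values were seen. BGLU18, a beta-glucosidase of endoplasmic reticulum bodies that can release abscisic acid from its glucose ester, had risen by 30 min and then rose further. It had 65.2, 69.6 and 49.2 CPM at 60 min, against 8.63, 8.93 and 11.3 CPM at 30 min (log2 change 2.67, SE 0.20, adjusted p 2.22e-05). AT1G52410, the gene TSA1 next to it by locus number and known as a component of the same bodies, was higher by 1.45 on the log2 scale (adjusted p 0.023, up to 0.111 and no call without replicate 1 or 2 of either time or with library size alone). AT1G52000, a mannose-binding lectin gene, had 39.2, 27.3 and 20.9 CPM at 60 min, against 2.99, 5.24 and 3.82 CPM at 30 min (log2 change 2.85, adjusted p 0.000199), and 2 of 6 tested lectins of that class were higher.

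Of 18 tested peptide and nitrate transporters, grouped by product name after their values were seen, 3 were higher, 0 lower and the rest not called. Of 89 major facilitator transporters, grouped in the same way, 4 were higher and 1 was lower, against 0.721% and 1.3% of all tested genes. These groups rest on product names and not on descent. NRT1.7, which loads nitrate into the phloem of old leaves, had 72.4, 49.5 and 79.9 CPM at 60 min, against 22.4, 29.9 and 26.6 CPM at 30 min (log2 change 1.35, adjusted p 0.00236). PTR1, a carrier of short peptides, was higher by 1.18 and OPT6, an oligopeptide carrier, by 1.44 on the log2 scale (adjusted p 0.00236 and 0.00261). Unlike NRT1.7 and PTR1, OPT6 had already been called higher by 30 min. GTR1, a glucosinolate carrier, was the 1 lower gene of the major facilitator group. It had 24.1, 20.3 and 21.9 CPM at 60 min against 42.9, 55.1 and 38.6 CPM at 30 min (log2 change -1.04, adjusted p 0.00541). Of 30 tested cell wall growth genes edgeR called 1 lower and 0 higher, and DESeq2 called 4 lower and 3 higher. Over all 17622 tested genes DESeq2 called 452 lower and 250 higher. Pectin methylesterases and their inhibitors, grouped by product name after the values were seen, had 4 of 37 higher and 1 lower. AT5G62360, an inhibitor-family gene that had already risen by 30 min, had 85.8, 52.2 and 92.8 CPM at 60 min, against 24.9, 37.2 and 28.3 CPM at 30 min (log2 change 1.35, adjusted p 0.00584). BR6OX2, an enzyme of the last steps of brassinosteroid synthesis, had 21.2, 20.3 and 12 CPM at 60 min, against 6.34, 7.82 and 4.80 CPM at 30 min (log2 change 1.5, adjusted p 0.00604).

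Of the 29 genes that had fallen by 30 min and then rose, 21 had no call between 60 min and before wounding. SAHH2, an enzyme that recycles the by-product of methylation reactions, had 223, 183 and 184 CPM at 60 min, against 90.5, 70.6 and 84.3 CPM at 30 min (log2 change 1.27, SE 0.14, adjusted p 0.000559). It stood at 242, 281 and 263 CPM before wounding and was still called lower at 60 min. GA20OX1, an enzyme of gibberellin synthesis, had 1.51, 1.93 and 1.46 CPM at 60 min, against 0.348, 0.146 and 0.0411 CPM at 30 min (log2 change 3.31, adjusted p 0.00931), with no call against before wounding. AT4G20970, a bHLH gene, reached 1.68, 2.50 and 1.73 CPM at 60 min, against 0 counts in all 3 libraries at 30 min, at least 12.4-fold higher if the floor of 3 counts per library is taken for 30 min. AT3G54400, which RefSeq lists as an aspartyl protease family protein, went past its start, with 136, 88.2 and 98.2 CPM at 60 min against 25.9, 27.4 and 24.7 CPM at 30 min (log2 change 2.04, adjusted p 3.15e-05) and 43.2, 44.2 and 43.5 CPM before wounding.

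Falls that went on after 30 min numbered 28, and all 28 were lower at 60 min than before wounding. GPAT3, a glycerol-3-phosphate acyltransferase, had 5.47, 4.21 and 8.33 CPM at 60 min, against 18.5, 23.1 and 27.6 CPM at 30 min (log2 change -1.95, adjusted p 0.000721). MSS3, an EF-hand calcium-binding protein, was lower by 1.43 on the log2 scale (adjusted p 0.0067). IAA14, an auxin response repressor, was lower by 1.34 (adjusted p 0.0199, up to 0.0973 and no call without 60 min replicate 1 or 30 min replicate 1 or 2, with library size alone or in a fit to the 30 and 60 min libraries only).

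Groups with few or no calls included 310 tested ribosomal protein genes, with 0 called by edgeR or by DESeq2 and 7 at an unadjusted p under 0.05 in edgeR. Over all 17622 tested genes 2196 had such a p. Neither tool called any of 25 ribosome assembly genes, 22 photosystem, antenna and Rubisco genes, 17 endoplasmic reticulum folding genes or 11 glutathione transferases, in which 1, 1, 2 and 1 genes had an unadjusted p under 0.05 and the median log2 changes were 0.22, -0.15, -0.05 and -0.19. With library size alone the median of the folding genes was 0.05. Among 27 clock genes 1 was lower, CCA1, which had a log2 change of -0.75. Heat shock genes had 1 of 11 lower, HSFB2A, a repressing heat shock factor, with a log2 change of -1.0. Indole glucosinolate and tryptophan genes had 2 of 19 lower, UGT74B1 and SOT16, the enzymes of the last steps of the glucosinolate core, with log2 changes of -0.79 and -0.91 and adjusted p of 0.0349 and 0.0377. All 4 of these calls were lost without 60 min replicate 1, with adjusted p of up to 0.171 for CCA1, 0.132 for HSFB2A, 0.102 for UGT74B1 and 0.166 for SOT16. HSFB2A was also lost without replicate 2 of either time, and UGT74B1 without any other single library of the 2 times. CCA1 and SOT16 were also lost without 30 min replicate 1 or 2 and without replicate 2 or 3 from before wounding, CCA1 without 60 min replicate 3, and SOT16 without 60 min replicate 2 and replicate 1 from before wounding. With library size alone CCA1, HSFB2A and UGT74B1 lost the call, in a fit to the 30 and 60 min libraries only CCA1, HSFB2A and SOT16 did, and with libraries thinned to equal depth CCA1 did.

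Promoters were read as the 250 bases upstream of each gene's annotated start, from the RefSeq TAIR10.1 genome. They are shown for LOX4 and TCH2, which fell and hold the rapid stress response element, for JAZ7, which fell and holds a G-box, and for RD29A, LTI30 and GOLS3, which rose and hold the core of the dehydration-responsive element. The rapid stress response element was searched as CGCGTT, the G-box as CACGTG and the dehydration-responsive element core as CCGAC, each on both strands. In other work these are known as sites of CAMTA factors, of MYC2 and its relatives, and of DREB factors. Where CGCGTT matches on both strands overlap, they share the bases CGCG. Each sequence runs 5' to 3' on the strand of its gene, ends at the base before the gene's start, and has in capitals the matches of the motif for which it is shown. Matches of other motifs counted below are left in lower case. They are 1 G-box in GOLS3, 1 W-box each in LOX4 and JAZ7, and 1 heat shock element core in LOX4. The windows lie at chr1:27308263-27308512, plus strand for LOX4, chr5:14999620-14999869, minus strand for TCH2, chr2:14572780-14573029, plus strand for JAZ7, chr5:21240467-21240716, plus strand for RD29A, chr3:18940393-18940642, plus strand for LTI30 and chr1:3019389-3019638, plus strand for GOLS3.
LOX4: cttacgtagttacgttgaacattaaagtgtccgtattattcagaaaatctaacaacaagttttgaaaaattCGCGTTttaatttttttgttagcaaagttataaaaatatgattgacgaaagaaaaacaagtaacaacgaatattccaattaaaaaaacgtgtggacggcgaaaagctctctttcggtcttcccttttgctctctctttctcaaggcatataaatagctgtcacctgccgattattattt
TCH2: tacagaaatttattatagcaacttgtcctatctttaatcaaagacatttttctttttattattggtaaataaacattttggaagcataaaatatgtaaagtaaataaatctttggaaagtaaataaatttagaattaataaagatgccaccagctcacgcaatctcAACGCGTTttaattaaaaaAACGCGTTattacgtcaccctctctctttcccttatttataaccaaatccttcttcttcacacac
JAZ7: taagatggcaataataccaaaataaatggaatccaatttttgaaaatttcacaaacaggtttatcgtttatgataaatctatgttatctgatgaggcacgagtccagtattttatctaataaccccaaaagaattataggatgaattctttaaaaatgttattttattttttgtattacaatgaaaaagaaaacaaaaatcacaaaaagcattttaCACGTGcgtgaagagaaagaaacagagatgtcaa
RD29A: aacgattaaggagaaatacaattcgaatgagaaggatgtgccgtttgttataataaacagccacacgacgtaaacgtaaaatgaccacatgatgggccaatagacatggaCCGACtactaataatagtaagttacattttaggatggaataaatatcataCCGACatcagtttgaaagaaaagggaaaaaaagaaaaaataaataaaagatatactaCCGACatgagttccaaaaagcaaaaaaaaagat
LTI30: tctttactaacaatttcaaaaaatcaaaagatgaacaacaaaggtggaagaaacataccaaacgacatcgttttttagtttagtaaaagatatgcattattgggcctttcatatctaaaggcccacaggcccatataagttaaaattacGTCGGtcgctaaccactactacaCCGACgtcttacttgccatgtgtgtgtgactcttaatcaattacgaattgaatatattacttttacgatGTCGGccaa
GOLS3: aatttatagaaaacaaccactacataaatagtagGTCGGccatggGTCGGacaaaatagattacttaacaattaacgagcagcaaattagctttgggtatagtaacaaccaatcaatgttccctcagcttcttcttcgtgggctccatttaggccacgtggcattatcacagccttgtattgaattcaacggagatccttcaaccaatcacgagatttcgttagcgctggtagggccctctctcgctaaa

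The LOX4 window holds 1 CGCGTT match and the TCH2 window 2 overlapping pairs of matches, the nearer pair starting 65 bases before the gene. RD29A and LTI30 have 3 CCGAC matches each and GOLS3 has 2. CGCGTT was present in 19 of the 159 promoters of early rises that fell, 11.9%, and in 126 of the 2402 promoters of early rises that were not lower at 60 min, 5.25%. It was in 0 of the 57 promoters of genes that rose after 30 min with no earlier call and in 2.84% of the 17610 tested promoters. Of all genes lower at 60 min, risen before or not, 11.8% held it, and of all genes higher at 60 min 1.57%. For CCGAC the shares were 10.06% of the early rises that fell, 16.1% of the early rises that were not lower, 14% of the rises that began after 30 min, 18.1% of all genes higher at 60 min and 13.2% of tested promoters. In the cold and drought list 8 of the 20 tested members held it, among them 5 of the 6 that were called, all but KIN2. The G-box was in 5 of the 9 JAZ promoters that fell. By class it was in 11.3% of the early rises that fell, 9.41% of the early rises that were not lower, 10.5% of the rises that began after 30 min and 7.48% of tested promoters. These class shares lie close together. The W-box, TTGAC, a site of WRKY factors, was in 57.2% of the early rises that fell, 42.1% of the rises that began after 30 min and 44.4% of tested promoters. GCCGCC, AAATATCT and GAANNTTC, the GCC-box, evening element and heat shock element core, were in 1.89%, 3.77% and 12.6% of the early rises that fell, and in 1.95%, 5.12% and 9.29% of tested promoters. These are counts of letters in a window, with no test, and the motifs and the cold list were chosen with results of these data known.

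**Figure D5:**
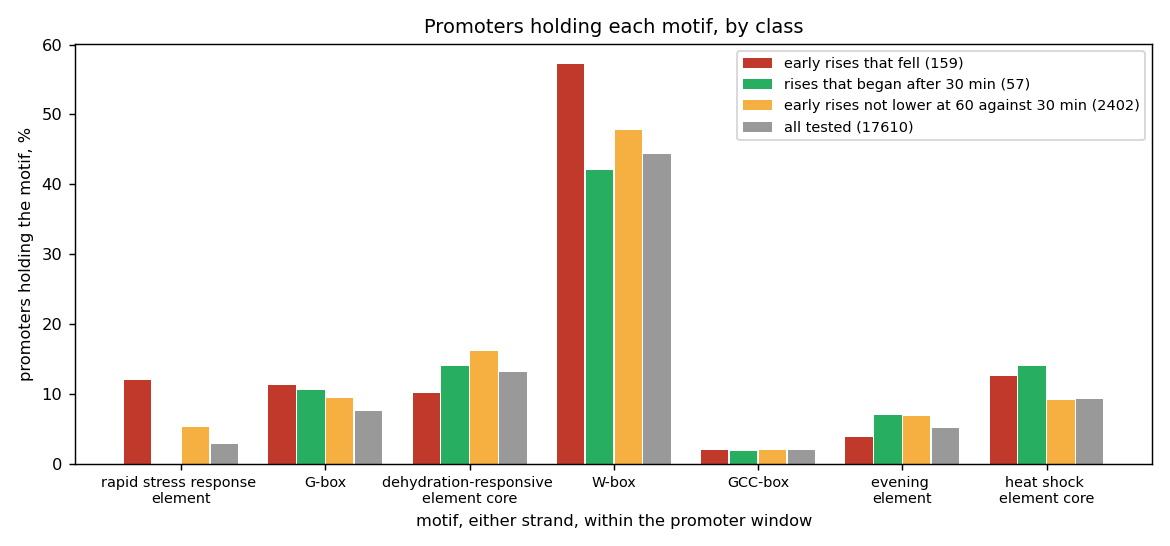
Share of promoters (%, linear axis from 0) that hold each of 7 motifs on either strand, for early rises that fell (red, 159), rises that began after 30 min (green, 57), early rises not lower at 60 min (orange, 2402) and all tested genes (grey, 17610). The rapid stress response element is in 11.9% of the early rises that fell, in none of the rises that began after 30 min and in 2.84% of all tested promoters. Not drawn are all genes lower at 60 min, of which 11.8% hold it.

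Exon counts are given as shares, with no test. Of the 159 early rises that fell 28.9% were single-exon genes, against 14.3% of the early rises that were not lower and 14.5% of all tested genes. Of the rises that began after 30 min 8.77% had a single exon. The median number of exons was 3 in the early rises that fell, 4 in the rises that began after 30 min and 5 over all tested genes, and median transcript lengths were 1917, 2037 and 1765 bases. Of the 356 called genes 83 overlap a gene on the opposite strand. Among those named here these are MYC2, JAZ10, AT3G22275, RRTF1, ORA47, WRKY40, ATAF1, MYBR1, MPK3, AT1G27770, CRK10, TCH2, OPT6 and GTR1, and the use of strand in counting is not given in the sources used here, so reads of the overlapping partner cannot be told apart in their values.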

How the data were processed

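The authors deposited raw counts per gene for 9 polyadenylated-RNA libraries, whole numbers with no normalization. FastQC 0.11.8, Trimmomatic 0.36, HISAT2 2.2.0 and featureCounts and the genome TAIR10 are named in the submitters' processing notes. Read length, annotation release and strand setting are not given in the sources used here. Per the labels the replicates are biological, and 0 columns belonged to no sample.

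Genes were filtered with filterByExpr, which left 17622 of 27206 genes with 99.96% of counts. The test was the quasi-likelihood test of edgeR 4.0.16 under R 4.3.3 (TMM factors, 1 fit to all 9 libraries, two-sided, Benjamini-Hochberg over the tested genes, threshold 0.05). The common biological coefficient of variation was 0.217. The SE of a log2 change is its size divided by the square root of its F statistic. CPM was relative to TMM-scaled totals, and 3 counts were taken as a floor, which covers counting error only. Fits with DESeq2 1.42.0 or with a surrogate variable from sva 3.50.0 were alternatives. Symbols and promoters came from RefSeq (TAIR10.1), in which 17611 tested genes were found.

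The gene lists and motifs were chosen with earlier results of these data known. By rule, named genes are the 12 largest called rises and falls whose higher group has 20 or more counts per library and does not overlap the other in CPM, the 6 most abundant of each, and the 2 members of each list with the smallest p. Genes named outside that rule, and the families by product name, were chosen after their values were seen.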

Additional observations from a re-analysis of the deposited data

How the results depend on the processing

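No called value of the 57 named genes that passed the threshold changed direction under any alternative, and of 1083 such values 159 lost the call. The 356 genes differing at 60 min against 30 min became 702 with DESeq2, 1190 with 1 surrogate variable, 143 at an adjusted p under 0.01 and 161 to 480 when 1 library was left out. Higher genes, 127, became 250, 502, 56 and 52 to 151 in the same order, and lower genes, 229, became 452, 688, 87 and 100 to 329. Library size alone gave 125 lower genes and a fit to the 30 and 60 min libraries only gave 152. Early rises that fell, 159, became 266, 373, 62 and 69 to 226, with 94 for library size alone. Rises that began after 30 min, 57, became 109, 213, 29 and 25 to 70. Genes differing from before wounding at 30 min, 4930, were 2981 at a threshold of 0.01 and 3474 to 5407 with 1 library left out, and at 60 min, 5704, they were 3494 and 4063 to 6057. All 356 calls were among those of DESeq2 and of the surrogate fit. The cause of these shifts was not tested.

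Replicate numbers did not pair the libraries: deviations of same-numbered libraries at 60 and 30 min correlated at 0.02, -0.37 and -0.27. With the replicate block the counts were 223 differing, 79 higher, 144 lower, 104 early rises that fell and 35 rises that began after 30 min.

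Precision is limited by 3 libraries a time, by 1 library of 14300929 counts, and by low counts in genes near the floor, whose fold changes depend on the prior count.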
